A study of Mus musculus with 23 samples.

Results

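The glutathione transferases and glutathione peroxidases of B16-F1 melanoma tumors were followed across 8 treatment groups. They were taken as every row of the count table with the biotype protein_coding and a matching gene name. The names were those of the transferase classes (Gsta, Gstk, Gstm, Gsto, Gstp, Gstt, Gstz), of the microsomal transferases (Mgst) or of the glutathione peroxidases (Gpx), each followed by a digit. That gave 34 genes of 56748 rows, chosen by name alone and not by any measured value. Of these, 32 had at least 1 read in some tumor, as did 29064 rows of the whole table.

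B16-F1 is a mouse melanoma cell line, and the tumors had grown from cells implanted under the skin of inbred DBA/2J mice aged 6 to 8 weeks. The mice received pentoxifylline (PTX, a methylxanthine that inhibits phosphodiesterases) at 60 mg/kg, norcantharidin (NCTD, a demethylated form of cantharidin) at 3 mg/kg, both together (MIX), or vehicle. Injections were intraperitoneal (IP), with saline as the vehicle (CONTROL_IP, PTX_IP, NCTD_IP and MIX_IP, 2 tumors each), or intratumoral (IT), with DMSO as the vehicle (CONTROL_IT, NCTD_IT and MIX_IT with 4 tumors each, and PTX_IT with 3). The labels name no engineered allele or transgene in any group, and every group carried the same cell line in the same host strain, which is not the strain of origin of the line.

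RNA from 23 whole tumors was sequenced as 3′ mRNA libraries, with 2861578 to 6702374 reads assigned to genes per tumor. Levels are given as CPM, the counts scaled to the library size with the trimmed mean of M values (TMM), and the 3 reads that a count of 0 allows came to 0.448 to 1.05 CPM per tumor. Differences are log2 fold changes from edgeR's quasi-likelihood test, with Benjamini-Hochberg adjustment over all genes tested. A gene was taken as higher or lower by test where the adjusted p was below 0.05, and unadjusted p-values are given beside it. In whole-tumor RNA, fewer cells of a type and less RNA per cell cannot be told apart. The labels give each tumor its own number and do not say more of its origin, so p-values measure the spread between these tumors.

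Glutathione transferases join the tripeptide glutathione to electrophilic compounds, which include drug metabolites and the aldehydes formed when membrane lipids are oxidised. The cytosolic enzymes fall into classes by sequence, while the microsomal ones are membrane proteins of a separate family. Glutathione peroxidases use glutathione to reduce hydrogen peroxide and lipid hydroperoxides. Some of them, such as Gpx1 and Gpx4, carry selenocysteine, which is read from an in-frame TGA codon that would otherwise stop translation. In tumors, these enzymes are known for the part they play in tolerance to oxidants and to alkylating drugs.

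Several of these genes have near-identical copies elsewhere in the genome, and this set how their reads could be counted. The files count the copies as rows of their own. Gstp1, the main pi-class transferase, lies on chromosome 19, 4085407 to 4087985 (GRCm39, minus strand). Its processed pseudogene Gstp-ps lies on chromosome 1, at 191758120 to 191758750 on the minus strand, within an intron of Traf5 on the same strand. Over the 630 coding bases of Gstp1 the pseudogene has 15 mismatches, an identity of 97.619%. Gstp-ps is not particular to Gstp1. By whole transcript it matched Gstp2 over 842 bases at 99.22% identity and Gstp1 over 707 bases at 98.25%. The stretch of 60 bases with the most mismatches between Gstp1 and Gstp-ps (coding bases 280 to 339, counted from the first base of the start codon; chr1:191758414-191758473, minus strand, in the pseudogene) is printed because it shows where the gene and its copy differ most. Whether reads of these 3′ libraries fall there was not examined. Sequences are from the GRCm39 reference, run 5′ to 3′, and capitals mark the bases that differ.
Gstp1: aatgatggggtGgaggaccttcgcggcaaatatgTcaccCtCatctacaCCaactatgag
Gstp-ps: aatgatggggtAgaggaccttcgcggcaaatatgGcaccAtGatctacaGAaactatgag
The 6 differences, with the base of Gstp1 first and the position in its coding sequence, are G291A, T314G, C319A, C321G, C329G and C330A.

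Gpx4, the peroxidase that reduces phospholipid hydroperoxides within membranes, lies on chromosome 10, 79883000 to 79892273 (plus strand). Its transcribed processed pseudogene Gpx4-ps2 lies on the same chromosome at 45751384 to 45752191 on the plus strand, and had 2 mismatches over the 553 coding bases that could be aligned (99.638% identity). The stretch shown (coding bases 174 to 233; chr10:45751521-45751580, plus strand, in the pseudogene) holds the in-frame TGA of the selenocysteine codon, codon 73, whose first base is coding base 217, and only 1 difference, C204T.
Gpx4: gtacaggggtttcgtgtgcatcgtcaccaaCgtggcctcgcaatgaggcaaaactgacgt
Gpx4-ps2: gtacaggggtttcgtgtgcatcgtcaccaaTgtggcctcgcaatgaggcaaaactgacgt
The copy therefore keeps the TGA, and a read over this stretch differs from the gene at 1 base.

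The reads were divided between genes and copies very unevenly. Over all tumors, Gstp-ps held 169904 reads and Gstp1 34622, and Gpx4-ps2 held 8648 reads and Gpx4 2102. In the alpha class, Gsta1 (6644 reads) shared a stretch of 471 bases at 99.79% identity with Gm3776 (5411 reads), a protein-coding gene beside it on chromosome 9 (78164411 to 78176448) whose name is outside the rule. Gsta2 shared 217 bases with Gsta1 at 99.54% identity and with Gm3776 at 99.08%, and Gsta2 and Gsta5 shared stretches of 96.54% to 98.39% identity with each other. The match of Gsta1 lies at 78175977 to 78176447, at the 3′ end of Gm3776, and these libraries read the 3′ end. How the authors' counting treated reads that match more than 1 place is not given in the sources used here. The values of Gstp1, Gstp2, Gpx4, Gsta1, Gsta2 and Gsta5 are therefore uncertain as levels of these genes.

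**Figure D1:**
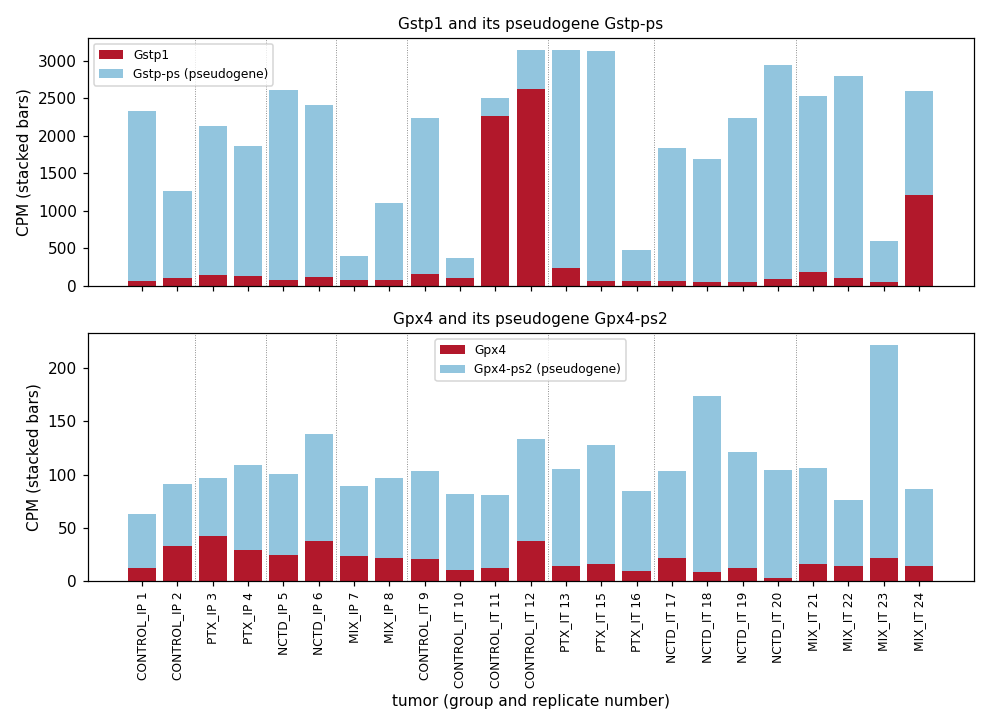
Levels of Gstp1 with its pseudogene Gstp-ps, and of Gpx4 with Gpx4-ps2, in each of the 23 tumors, as stacked bars in CPM (TMM-scaled). Gstp1 made up most of its pair in CONTROL_IT 11 and 12 and close to even shares in MIX_IT 24, and the pseudogene held most of it in the other 20 tumors.

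Of the 34 genes, 22 were detected, which was taken to mean that all 8 group means reached 1 CPM. They were Gsta1, Gsta2, Gsta4 and Gsta5 of the alpha class (4 of 5), Gstk1 (kappa, 1 of 1), Mgst1, Mgst2 and Mgst3 (microsomal, 3 of 3), Gstm1, Gstm2, Gstm4, Gstm5 and Gstm6 (mu, 5 of 7), Gsto1 (omega, 1 of 2), Gstp1 (pi, 1 of 3), Gstt2 and Gstt3 (theta, 2 of 4), Gstz1 (zeta, 1 of 1) and Gpx1, Gpx3, Gpx4 and Gpx8 (peroxidases, 4 of 8). The other 12 were thinly read or absent. Gstm3 and Gpx6 had no read in any tumor, where a count of 0 allows up to 3 reads per library. Gpx5, which is known from the epididymis, and Gstt4 had 2 reads each over all tumors, Gstp3 had 17 and Gpx2, the peroxidase of the gut lining, had 22. Gsta3 had 39, Gstt1 90, Gstp2 104, Gsto2 113, Gpx7 144 and Gstm7 177 reads. Floors and intervals on such counts cover counting error only.

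Per kb of the gene length given with the counts, Gpx1, the cytosolic selenoenzyme, stood first, with a median over tumors of 419 CPM per kb (604 CPM). It was followed by Mgst1, the most abundant microsomal enzyme, at 77.5 CPM per kb, Gstm1 at 73.9, Gsta2 at 71, Gsta1 at 66.3, Gstp1 at 64.2, Gpx8 at 61.7 and Gstm2 at 60.3 CPM per kb. These libraries read the 3′ end, so counts need not grow with length, and the order from Mgst1 to Gstm2 holds values that the spread between tumors does not separate. By CPM alone, the range within the detected genes ran from 604 for Gpx1 to 1.55 for Gstk1, the kappa enzyme of mitochondria and peroxisomes. The heat map of all members places these levels by tumor.

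**Figure D2:**
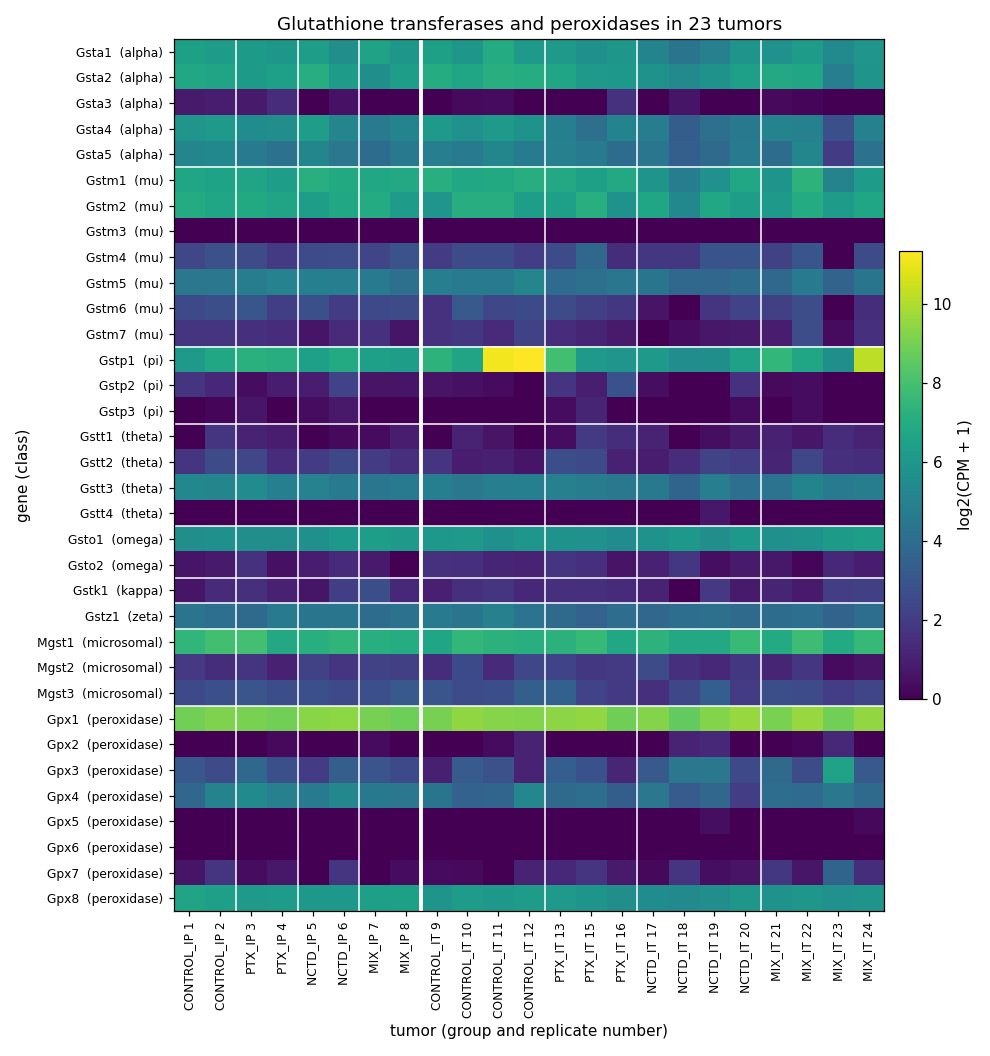
Level of each of the 34 genes (rows, by class) in each of the 23 tumors (columns, by group), as log2(CPM + 1). Dark shades are low and bright shades are high. Gpx1 is high throughout, and 12 rows are near 0 or patchy. MIX_IT 23 is darker for Gsta1, Gsta2, Gsta4 and Gsta5, and brighter for Gpx3, than the other MIX_IT tumors.

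The genes of most classes sit together. The alpha genes Gsta1, Gsta2, Gsta4 and Gsta5 lie on chromosome 9 between 78090056 and 78263070, the mu genes on chromosome 3 between 107803137 and 107952210, the theta genes on chromosome 10 between 75609949 and 75673258 and the pi genes on chromosome 19 between 4085407 and 4109569. Gsta3, which was not detected, is the alpha gene away from the cluster, on chromosome 1 between 21310813 and 21335885.

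Before the comparisons, other features of these tumors are given because they moved with the groups. Transcripts of the Y-linked gene Ddx3y stood at 1.03 to 8.99 CPM in CONTROL_IT and 6.82 to 15.4 in MIX_IT, against 0 to 0.280 in PTX_IT and 0 to 0.285 in NCTD_IT. Xist, which is made from the inactive X chromosome of female cells, stood at 0 to 0.572 CPM in CONTROL_IT, 0 in the MIX_IT tumors, 1.29 to 11.4 in PTX_IT and 5.13 to 13.4 in NCTD_IT. The study's methods describe sex-matched groups, whereas these levels separated PTX_IT and NCTD_IT from CONTROL_IT and MIX_IT. Summed levels of 6 melanocyte markers, taken as a check of the tumor label, were 25629 to 31100.0 CPM in CONTROL_IT, 18366 to 26224 in NCTD_IT and 14836 to 28642 in MIX_IT. Summed fibroblast markers (6 genes) were 105 to 365 CPM in CONTROL_IT, 251 to 803 in PTX_IT, 369.7 to 1606 in NCTD_IT and 486 to 8460.0 in MIX_IT, the last maximum being MIX_IT 23. Summed neutrophil markers (5 genes) reached 17.5 to 1060.0 CPM in NCTD_IT, against 2.29 to 8.78 in CONTROL_IT, and hepatocyte markers stayed at or below 2.19 CPM in all tumors. In NCTD_IT, 4 of the 5 fibroblast markers tested, 5 of 5 endothelial markers and 3 of 3 neutrophil markers were higher at an unadjusted p below 0.05, and 3 of 4 erythroid markers were lower. In MIX_IT, 5 of 5 fibroblast and 3 of 5 endothelial markers were higher, and in PTX_IT 1 of 5 and 0 of 5. Summed macrophage markers (6 genes) were 61.6 to 343 CPM in CONTROL_IT, 57 to 599 in PTX_IT, 196 to 609 in NCTD_IT and 129 to 340.4 in MIX_IT. At the same p, 2 of 6 macrophage markers were higher in PTX_IT, 2 in NCTD_IT and 1 in MIX_IT, and 1, 1 and 0 of 5 T and NK cell markers. Of the 3 neutrophil markers tested, 1 was higher in PTX_IT and 0 in MIX_IT. Fabp4, the adipocyte marker tested, was higher in NCTD_IT and MIX_IT (unadjusted p = 0.0149 and 0.00341 by edgeR). Of all genes, 11.6% were higher at this p in NCTD_IT, 7.88% in MIX_IT and 4.18% in PTX_IT, and 10% were lower in NCTD_IT. The part of other cell types and of sex in the IT results below was not tested beyond a fit with Xist as a covariate.

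Among the 6 drug comparisons, intratumoral NCTD had the most genes of these families with small p-values. Gsta1, an alpha transferase, fell in NCTD_IT and was the only one of the 23 genes tested that edgeR called, while 171 of 12480 genes, or 1.37%, were called in the whole table (0.449% lower and 0.921% higher). DESeq2 called 6 of the 24 of these genes that it gave an adjusted p, and 1380 of 13016 genes in the whole table (10.6%), edgeR in 1 model of all 23 tumors called 4 members (777 genes in all), and edgeR on only the 2 groups called 5 (946 in all). At an unadjusted p below 0.05, 9 of the 23 were lower and 0 were higher, against 10% and 11.6% of all genes. These 9 belonged to the alpha, mu, pi, zeta and peroxidase groups. The log2 fold change was below 0 for 19 of 23 (all genes 48%), and its median was -0.52 over these genes and 0.03 over all genes tested. All NCTD_IT tumors lay below all controls for 8 of the 23 and above them for 0, against 9.82% and 7.04% of all genes. Which genes passed the filter on low counts depended on their level, so these counts describe the 23 and not all 34.

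In the alpha class, Gsta1 stood at 85.7, 63.4, 125 and 66.9 CPM in the 4 CONTROL_IT tumors and at 34.4, 19.7, 30.1 and 57.9 CPM in the 4 NCTD_IT tumors. Every NCTD_IT tumor was below every control tumor, and the means were 85.2 ± 28.1 (SD, n = 4) and 35.5 ± 16.1 (SD, n = 4) CPM. The log2 fold change was -1.23 ± 0.29 (SE), with an unadjusted p of 0.000623 and an adjusted p of 0.0489. Gsta4, which conjugates 4-hydroxynonenal, an aldehyde of lipid peroxidation, stood at 69, 52.9, 67.7 and 55.5 CPM in CONTROL_IT and at 27.2, 9.12, 17.1 and 23 CPM in NCTD_IT. The groups did not overlap for this gene either, and its log2 fold change was -1.64 ± 0.41 (SE), with an unadjusted p of 0.000944 and an adjusted p of 0.0542. Gsta2 stood at 129, 102, 142 and 131 CPM in CONTROL_IT and 54, 39.9, 56.8 and 83.5 CPM in NCTD_IT, again without overlap, for a log2 fold change of -1.08 ± 0.33 (SE), with an unadjusted p of 0.00518 and an adjusted p of 0.0846. For Gsta5 the groups overlapped (24.6 to 36 CPM against 9.97 to 25.7 CPM), with a log2 fold change of -0.65 ± 0.47 (SE) and an unadjusted p of 0.190.

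The call of Gsta1 lay close to the threshold and rested on few tumors. With RLE size factors its adjusted p was just above 0.05. Leaving out CONTROL_IT 9, 11 or 12 gave an adjusted p of 0.125, 0.136 and 0.123, and leaving out NCTD_IT 17, 18 or 19 gave 0.0965, 0.146 and 0.0674, whereas the log2 fold change stayed between -1.56 and -0.98. With the level of Xist as a covariate the log2 fold change of Gsta1 was -1.21 with an adjusted p of 0.819, and 0 genes of the whole table were called. In that fit Gstp1 and Gpx8 were the 2 of the 23 genes with an unadjusted p below 0.05, while Gsta4 differed by -0.84 (unadjusted p = 0.304) and Gstz1 by -0.23 (unadjusted p = 0.611). Xist itself differed between these groups without overlap.

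In the mu class, which also handles aldehydes and epoxides, Gstm5 stood at 28, 23.7, 25.9 and 34.6 CPM in CONTROL_IT and 20.1, 12.8, 12.7 and 15.2 CPM in NCTD_IT, and Gstm1, the mu gene with the highest level, at 142, 113, 118 and 134 CPM and 57.8, 27.1, 53.4 and 109 CPM. Neither gene overlapped between the groups, although NCTD_IT 20, at 109 CPM of Gstm1, came close to the lowest control. The log2 fold change of Gstm5 was -0.84 ± 0.26 (SE), with an unadjusted p of 0.00552 and an adjusted p of 0.0862. That of Gstm1 was -1.01 ± 0.40 (SE), with an unadjusted p of 0.0230 and an adjusted p of 0.159. Gstm7 was read thinly, at 2.05, 2.63, 1.52 and 3.72 CPM in CONTROL_IT and 0, 0.285, 0.684 and 0.786 CPM in NCTD_IT, and its log2 fold change of -2.50 ± 0.95 (SE) had an unadjusted p of 0.0178 and an adjusted p of 0.145. Gstm2, close in level to Gstm1, differed by -0.28 ± 0.35 (SE), with a 95% interval of -0.96 to 0.41.

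Gstz1, the zeta transferase that also isomerises maleylacetoacetate in tyrosine breakdown, stood at 24.1, 20.4, 29.4 and 18.9 CPM in CONTROL_IT and 12.5, 16, 17.4 and 14.1 CPM in NCTD_IT. The highest NCTD_IT tumor was below the lowest control, and the log2 fold change was -0.60 ± 0.23 (SE), with an unadjusted p of 0.0168 and an adjusted p of 0.141. A longer annotated transcript of Gstz1 overlaps Tmed8 on the other strand, and the strand setting of the counting is not given in the sources used here. Gpx8, a peroxidase of the endoplasmic reticulum without selenocysteine, stood at 58.8, 73.3, 65.7 and 77.2 CPM in CONTROL_IT and 45.2, 42.2, 46.5 and 63.6 CPM in NCTD_IT. These values overlapped at NCTD_IT 20, and the log2 fold change was -0.45 ± 0.17 (SE), with an unadjusted p of 0.0174 and an adjusted p of 0.143.

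By class median, the microsomal, omega and peroxidase classes stayed nearer to the controls than the alpha and mu classes. Single peroxidases differed by more than their class median, as given for Gpx8 above and Gpx3 below. The median log2 fold change in NCTD_IT was -1.16 over the 4 alpha genes and -0.93 over the 6 mu genes, against -0.10 over the 3 microsomal genes and -0.24 over the 4 peroxidases. Of the 2 theta genes 1 was higher and 1 lower (median 0.30). The classes with 1 gene tested stood at -0.60 (zeta), -0.51 (kappa) and -4.31 (pi, Gstp1, treated below). Gpx1 differed by -0.04 ± 0.21 (SE) (95% interval -0.45 to 0.38), Mgst1 by 0.06 ± 0.26 (SE) (-0.45 to 0.58) and Gsto1 by -0.06 ± 0.18 (SE) (-0.42 to 0.31). As sums over a class, the alpha genes stood at 311, 244, 371 and 278 CPM in CONTROL_IT and at 137, 79.2, 118 and 190.1 CPM in NCTD_IT. All NCTD_IT sums were below all control sums. The peroxidase sum, most of which is Gpx1, was 716 ± 85.6 (SD, n = 4) CPM in CONTROL_IT and 672 ± 153 (SD, n = 4) CPM in NCTD_IT, a difference within the spread between tumors.

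**Figure D3:**
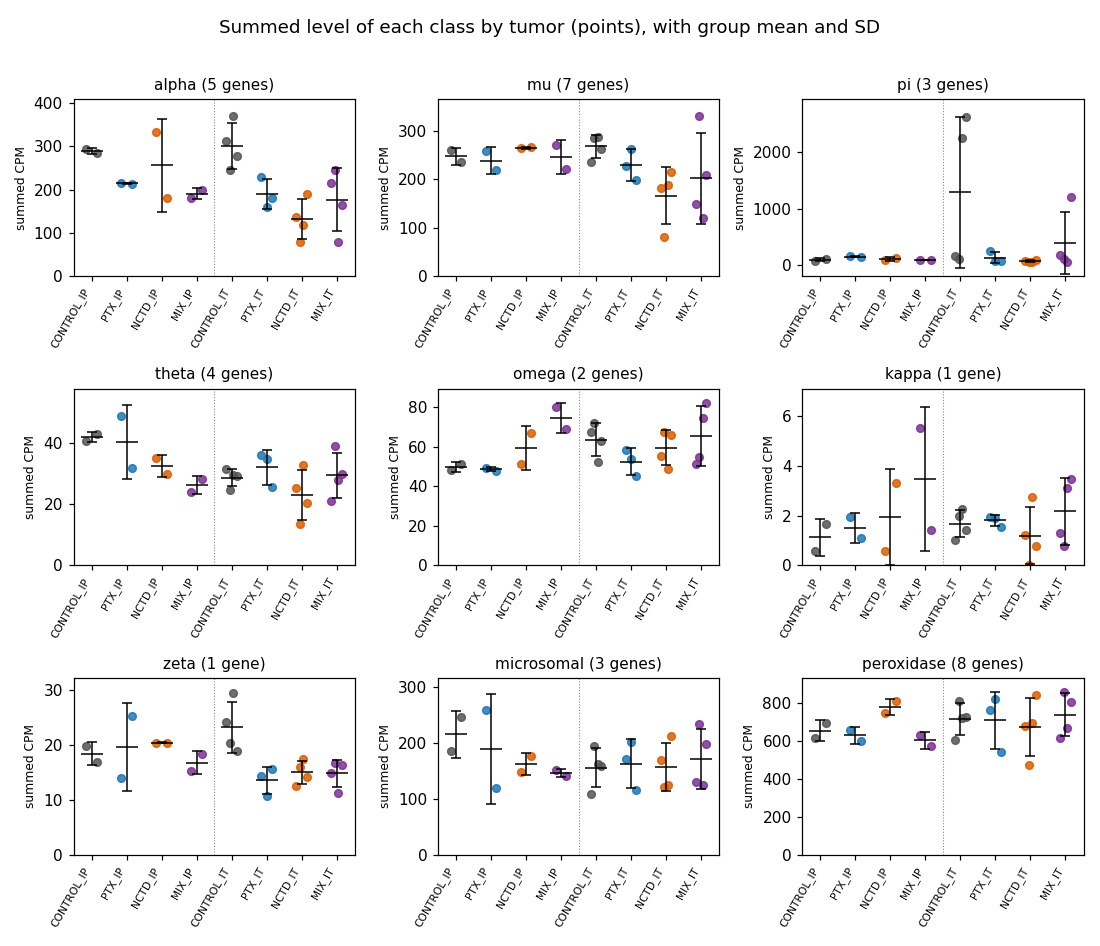
Summed CPM of each class (panels) by tumor (points), with the mean and SD of each of the 8 groups. Points of the alpha class in NCTD_IT (79.2 to 190.1 CPM) all lie under those of CONTROL_IT (244 to 371 CPM), and the pi class has 3 tumors far above the other 20.

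Gstp1 needs its copy beside it. It stood at 163, 99.4, 2259 and 2628 CPM in CONTROL_IT and 69.3, 46.4, 49.6 and 89.5 CPM in NCTD_IT, a log2 fold change of -4.31 ± 1.10 (SE), with an unadjusted p of 0.00115 and an adjusted p of 0.0556. The large values came from CONTROL_IT 11 and 12, in which Gstp1 made up 90.3% and 83.5% of the summed reads of Gstp1 and Gstp-ps. MIX_IT 24 (1208 CPM) had 46.6%, and the remaining 20 tumors had between 2.21% and 26.6%. With both rows summed, a setting chosen after seeing the data, the pair stood at 2238, 373, 2500.4 and 3149 CPM in CONTROL_IT and 1831, 1685, 2243 and 2946 CPM in NCTD_IT. These sums overlapped, and the log2 fold change turned to 0.11 with an adjusted p of 0.935. The same summing gave 0.13 (adjusted p = 0.979) in PTX_IT, where Gstp1 alone had differed by -3.38 ± 1.18 (SE), with an unadjusted p of 0.0109 and an adjusted p of 0.785. For Gsta1, summing with Gm3776 left a log2 fold change of -1.10 and an adjusted p of 0.0482 in NCTD_IT.

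Intratumoral PTX was next. None of the 23 genes tested was called by edgeR, as was the case for all 12480 genes (0%). DESeq2 called 1, Gsta4, of the 28 that it gave an adjusted p, and 15 of 15487 genes in the whole table (0.0969%). By edgeR, 5 of the 23 had an unadjusted p below 0.05 against 6.35% of all genes. 4 were lower and 1 was higher (all genes 2.16% and 4.18%). Gstz1 stood at 14.3, 10.8 and 15.5 CPM in the 3 PTX_IT tumors, below the 4 controls given above, for a log2 fold change of -0.77 ± 0.25 (SE), with an unadjusted p of 0.00671 and an adjusted p of 0.758. Gsta4, at 28.6, 17.4 and 33.7 CPM, did not overlap with the controls either and differed by -1.20 ± 0.44 (SE), with an unadjusted p of 0.0153 and an adjusted p of 0.785. Gstm5, at 14.9, 17.4 and 20.7 CPM, was the third gene whose groups did not overlap, and differed by -0.66 ± 0.29 (SE), with an unadjusted p of 0.0356 and an adjusted p of 0.785. Against these 3 genes wholly below the controls and 0 wholly above stand 4.1% and 3.81% of all genes, and 17 of 23 had a log2 fold change below 0 (all genes 48.4%; medians -0.26 and 0.02). The gene with the higher mean was Gstt2, a theta transferase, at 5.60, 4.76 and 1.04 CPM against 2.31, 0.878, 1.01 and 0.572 CPM in the controls, which overlapped. It differed by 1.65 ± 0.75 (SE), with an unadjusted p of 0.0426 and an adjusted p of 0.785. Without PTX_IT 15, the genes with an unadjusted p below 0.05 numbered 2, and the share of all genes in that fit is not given here.

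In MIX_IT, 0 of 23 genes were called by edgeR (all genes 0%). DESeq2 called 1, Gsta4, of the 24 that it gave an adjusted p, and 230 of 11969 genes in the whole table (1.92%). By edgeR, 5 of the 23 had an unadjusted p below 0.05 against 13% of all genes. Of the 5, 4 were lower and 1 higher (all genes 5.11% and 7.88%), and 17 of 23 had a log2 fold change below 0 (all genes 48.9%; medians -0.27 and 0.01). Gsta4 stood at 32.4, 30.8, 5.77 and 30.6 CPM, all under the control range of 52.9 to 69 CPM, and differed by -1.29 ± 0.40 (SE), with an unadjusted p of 0.00515 and an adjusted p of 0.197. Gstz1 was also below every control tumor, at 14.9, 16.7, 11.3 and 16.3 CPM, and differed by -0.64 ± 0.22 (SE), with an unadjusted p of 0.0112 and an adjusted p of 0.246. These were the 2 genes wholly below the controls, and 0 lay wholly above them (all genes 5.16% and 4.79%). In these tumors Xist was at 0, as in some controls. Gstm5 (13.2, 25.8, 11.3 and 20.1 CPM) and Gsta2 (115, 101, 27.6 and 58 CPM) overlapped with the controls and differed by -0.66 ± 0.26 (SE) and -0.73 ± 0.33 (SE), with unadjusted p-values of 0.0219 and 0.0408 and adjusted p-values of 0.294 and 0.359.

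Gpx3, the secreted peroxidase of plasma, was the one gene of the 5 with a higher mean in MIX_IT. It stood at 1.03, 8.56, 6.09 and 1.14 CPM in CONTROL_IT and 14.1, 5.16, 91.6 and 7.98 CPM in MIX_IT, for a log2 fold change of 2.79 ± 0.92 (SE), with an unadjusted p of 0.00780 and an adjusted p of 0.214. A single tumor, MIX_IT 23, carried the high value, and 2 of the other 3 lay within the control range. Without MIX_IT 23 the log2 fold change of Gpx3 was 1.07 with an unadjusted p of 0.171, and 2 of the genes tested, in place of 5, had an unadjusted p below 0.05. The share of all genes in that fit is not given here. MIX_IT 23 also had the highest summed fibroblast markers and the lowest summed melanocyte markers of its group, and the lowest Gsta1, Gsta2, Gsta4 and Gsta5 (42.3, 27.6, 5.77 and 2.88 CPM). The part of other cells in these values was not tested. Without it, Gsta4 still differed by -0.97, with an unadjusted p of 0.00386. In NCTD_IT, Gpx3 stood at 7.91, 21.9, 21.9 and 4.71 CPM and its difference from the controls was 1.73 ± 0.92 (SE), with an unadjusted p of 0.0765 and an adjusted p of 0.282.

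**Figure D4:**
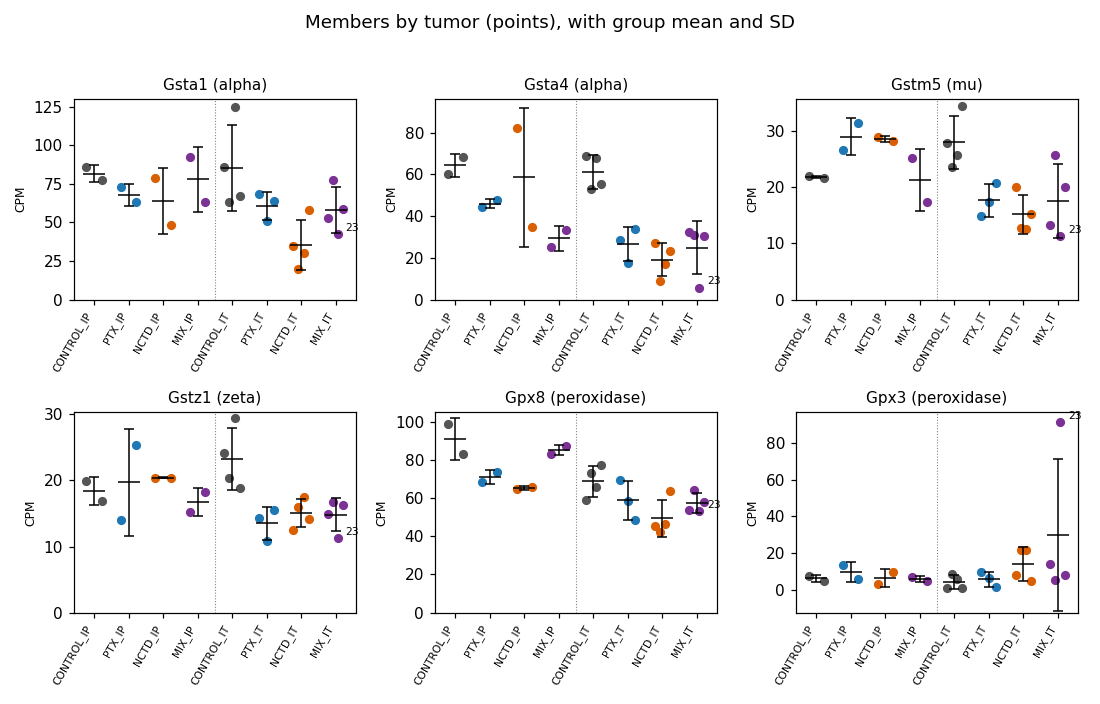
CPM of Gsta1, Gsta4, Gstm5, Gstz1, Gpx8 and Gpx3 in each of the 23 tumors (points), with group means and SD. Gsta4 and Gstz1 lie below every CONTROL_IT tumor in all 3 IT drug groups, and Gpx3 is highest in MIX_IT 23 at 91.6 CPM.

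Read together by route, the F test of any difference among the 4 IT groups called 0 of the 23 genes by edgeR (3 of 12480 genes, 0.024%), and 7 had an unadjusted p below 0.05 (all genes 12.9%). DESeq2 called 3, Gstp1, Gsta1 and Gsta4, of the 16 it gave an adjusted p, and 309 of 8629 genes (3.58%). By edgeR's unadjusted p the 7 were Gsta4 (0.00297), Gstp1 (0.00302), Gsta1 (0.00608), Gstz1 (0.0157), Gstm5 (0.0222), Gpx3 (0.0252) and Gsta2 (0.0288), with adjusted p-values from 0.212 to 0.331 by edgeR.

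By the intraperitoneal route, where each group had 2 tumors, edgeR called 0 of the 25 genes tested in any comparison, as it did for all 12424 genes (0% in PTX_IP, 0% in NCTD_IP and 0% in MIX_IP). DESeq2 called 0 of the 30, 26 and 15 genes of these families that it gave an adjusted p, in the same order. An unadjusted p below 0.05 was found for 2 of the 25 in PTX_IP, 2 in NCTD_IP and 5 in MIX_IP, against 5.3%, 3.59% and 2.94% of all genes. By direction, they were 1 higher and 1 lower in PTX_IP (3% and 2.3% of all genes), 1 and 1 in NCTD_IP (1.92% and 1.67%) and 1 and 4 in MIX_IP (1.39% and 1.55%). The log2 fold change was below 0 for 17, 11 and 18 of the 25 in the same order, against 48.8%, 50.9% and 51.2% of all genes, with medians of -0.11, 0.02 and -0.10. With 2 tumors a group these counts were unstable, since they fell to 0 in PTX_IP and in NCTD_IP without CONTROL_IP 1 and to 0 in MIX_IP without MIX_IP 7.

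In MIX_IP, Gsta4 stood at 25 and 33.5 CPM against 60.5 and 68.2 CPM in CONTROL_IP, without overlap, and differed by -1.13 ± 0.35 (SE), with an unadjusted p of 0.0106 and an adjusted p of 0.999. Gsta5 stood at 15 and 23.1 CPM against 34.9 and 38.5 CPM and differed by -0.94 ± 0.32 (SE), with an unadjusted p of 0.0159 and an adjusted p of 0.999. Gsta2 differed by -0.71 ± 0.31 (SE) and Gstt3, the main theta gene, by -0.67 ± 0.26 (SE), with unadjusted p-values of 0.0470 and 0.0290. These 4 genes were lower than the controls without overlap. Gsto1, an omega transferase that reduces dehydroascorbate and thiol disulfides, had the opposite direction, at 79.3 and 69.3 CPM against 47.6 and 50.8 CPM, and differed by 0.60 ± 0.20 (SE), with an unadjusted p of 0.0140 and an adjusted p of 0.999. In all, 8 of 25 genes lay wholly below the controls in MIX_IP and 3 wholly above, against 18.7% and 17.2% of all genes.

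In PTX_IP, Gstp1 stood at 148 and 134 CPM against 67.3 and 107 CPM in CONTROL_IP and differed by 0.71 ± 0.26 (SE), with an unadjusted p of 0.0232 and an adjusted p of 0.906. Summed with its copy Gstp-ps, it stood at 2132 and 1867 CPM against 2335 and 1268 CPM, and these sums overlapped. Gsta5 stood at 24.6 and 18 CPM and differed by -0.77 ± 0.31 (SE), with an unadjusted p of 0.0354 and an adjusted p of 0.906. Gstp1 without its copy lay wholly above the controls and Gsta5 wholly below. They were among 2 genes wholly above and 8 wholly below in PTX_IP (all genes 15.2% and 16.9%). In NCTD_IP, Gpx8 stood at 64.6 and 65.8 CPM against 98.7 and 83.1 CPM and differed by -0.47 ± 0.18 (SE), with an unadjusted p of 0.0286 and an adjusted p of 0.999. Gstm1 was higher at 145 and 119.8 CPM against 101 and 94.1 CPM and differed by 0.44 ± 0.19 (SE), with an unadjusted p of 0.0400 and an adjusted p of 0.999. In that comparison 4 genes lay wholly above and 4 wholly below the controls (all genes 15.9% and 18.2%). In the F test of any difference among the 4 IP groups, 3 of 25 genes had an unadjusted p below 0.05 (all genes 3.27%), namely Gsto1 (0.0325), Gstp1 (0.0492) and Gsta4 (0.0496), each with an adjusted p of 0.999.

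**Figure D5:**
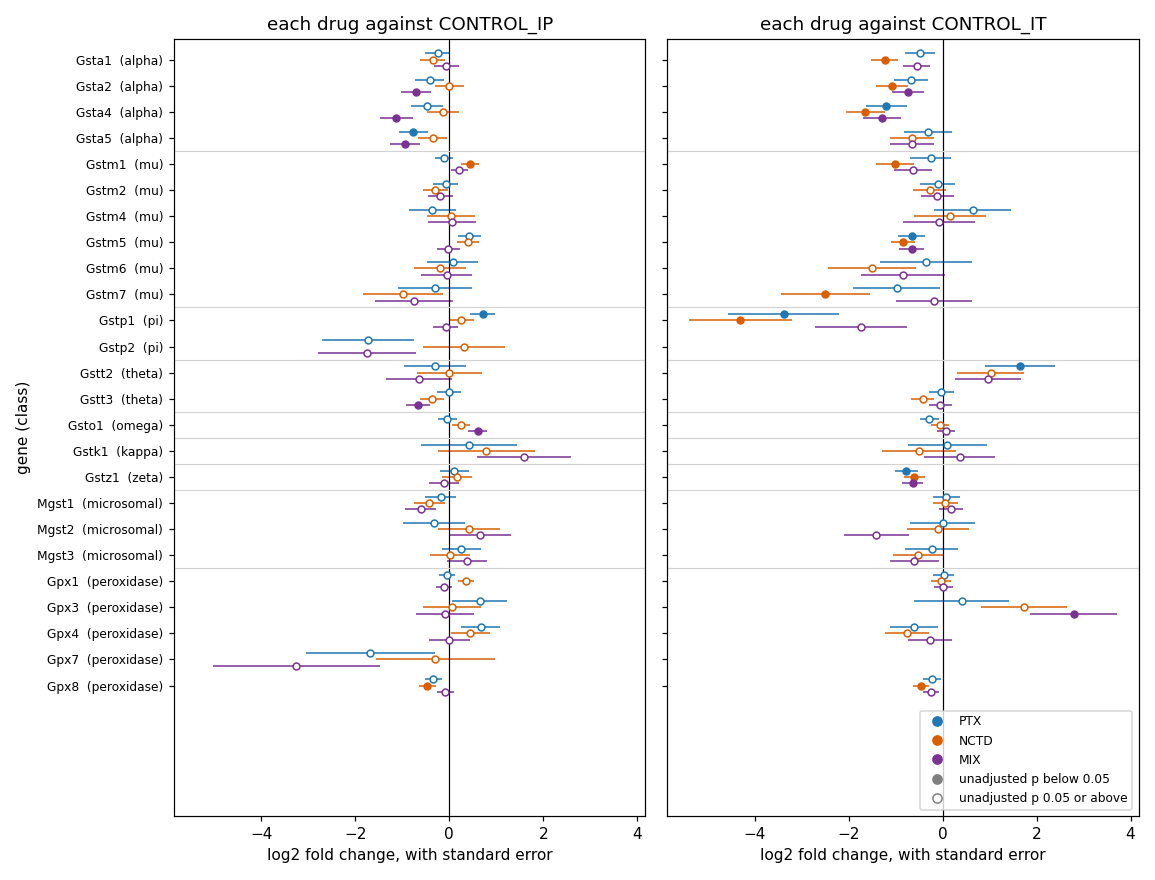
log2 fold change with its standard error for every gene tested, each drug against the control of its route (left IP, right IT). Filled points have an unadjusted p below 0.05; the alpha genes lie at or left of 0 in both panels, and the widest bars belong to thinly read genes and to Gstp1.

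The alpha class was the one whose tested genes were all on the same side in all 6 drug comparisons. The median log2 fold change of its 4 genes was -0.45 in PTX_IP, -0.24 in NCTD_IP, -0.82 in MIX_IP, -0.58 in PTX_IT, -1.16 in NCTD_IT and -0.69 in MIX_IT, while the median of all genes lay between -0.01 and 0.03. The 3 comparisons of a route share their control tumors, and the 4 genes share sequence and a locus, so these are not independent values. Summed over the class, CONTROL_IP stood at 289 ± 7.04 (SD, n = 2) CPM, PTX_IP at 215 ± 1.43 (SD, n = 2), NCTD_IP at 256 ± 108 (SD, n = 2) and MIX_IP at 190.4 ± 12.4 (SD, n = 2). In NCTD_IP the tumors lay on both sides of the controls, at 333 and 180.4 CPM. The IT groups stood at 301 ± 53.8 (SD, n = 4) CPM in CONTROL_IT, 190.0 ± 35.2 (SD, n = 3) in PTX_IT, 131 ± 46.1 (SD, n = 4) in NCTD_IT and 176 ± 73.3 (SD, n = 4) in MIX_IT.

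The remaining classes are given by their lowest and highest group means. The mu sum ranged over the group means from 166 ± 58.4 (SD, n = 4) CPM in NCTD_IT to 268 ± 24 (SD, n = 4) CPM in CONTROL_IT, and the microsomal sum from 146 ± 7.00 (SD, n = 2) CPM in MIX_IP to 216 ± 42.5 (SD, n = 2) CPM in CONTROL_IP. The omega sum ran from 48.7 ± 1.01 (SD, n = 2) CPM in PTX_IP to 74.7 ± 7.67 (SD, n = 2) CPM in MIX_IP, and the theta sum from 22.9 ± 8.17 (SD, n = 4) CPM in NCTD_IT to 41.8 ± 1.71 (SD, n = 2) CPM in CONTROL_IP. The zeta sum, of Gstz1 alone, ran from 13.5 ± 2.47 (SD, n = 3) CPM in PTX_IT to 23.2 ± 4.69 (SD, n = 4) CPM in CONTROL_IT. Kappa, a single gene, ran from 1.12 ± 0.759 (SD, n = 2) CPM in CONTROL_IP to 3.47 ± 2.92 (SD, n = 2) CPM in MIX_IP, values of few reads. The pi sum reached 1288 ± 1343 (SD, n = 4) CPM in CONTROL_IT through the 2 tumors named above.

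Between routes, with the drug in the model, 1 of 25 genes was called, against 49 of 13395 genes, or 0.366% (0.127% lower and 0.239% higher). Gpx8 fell in the IT tumors, with a log2 fold change of -0.41 ± 0.09 (SE), with an unadjusted p of 0.000149 and an adjusted p of 0.0462. Its means ran from 65.2 ± 0.835 to 90.9 ± 11 CPM in the 4 IP groups and from 49.4 ± 9.67 to 68.7 ± 8.18 CPM in the 4 IT groups (SD, 2 tumors per IP group and 4 per IT group named). Leaving out 1 tumor at a time kept the call only without CONTROL_IP 2, CONTROL_IT 12, PTX_IT 13, NCTD_IT 20 or MIX_IT 23 (adjusted p from 0.0181 to 0.0465), and without any 1 of the others the adjusted p was 0.0538 to 0.176, while the log2 fold change stayed between -0.44 and -0.39. With the Xist covariate the adjusted p was 0.0519, and without the filter on low counts it was 0.120. Route, vehicle and the batch given in the labels cannot be told apart. Sex-linked transcripts also differed by route, since Xist passed the filter on low counts in the IT groups and not in the IP groups. Ddx3y passed it in both. The part of sex in this and the following comparisons of routes was not tested beyond the Xist covariate.

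A further 4 genes had an unadjusted p below 0.05 for route, so that 5 of 25 compare with 13.5% of all genes. All 5 were lower (all genes 6.14%, with 7.33% higher), and 20 of 25 had a log2 fold change below 0 (all genes 51.2%). Gpx4 differed by -0.87 ± 0.28 (SE), with an unadjusted p of 0.00416 and an adjusted p of 0.163. Its reads made up 3.02% to 43.8% of those of Gpx4 and Gpx4-ps2 together, and with both summed the log2 fold change turned to 0.23 (adjusted p = 0.596). Gsta4 differed by -0.68 ± 0.25 (SE), with an unadjusted p of 0.0117 and an adjusted p of 0.219. Gstm5 differed by -0.38 ± 0.17 (SE) and Gstt3 by -0.31 ± 0.15 (SE), with unadjusted p-values of 0.0326 and 0.0417.

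Whether a drug's difference itself depended on the route was tested as the change by IT minus the change by IP. edgeR called 0 of the 25 genes for PTX, NCTD or MIX, and DESeq2 0 of the 32, 11 and 15 that it gave an adjusted p, while edgeR called 0%, 0% and 0% of all genes. An unadjusted p below 0.05 was reached by 4 of them for PTX, 4 for NCTD and 1 for MIX, against 5.23%, 10.8% and 7.44% of all genes, and the difference was below 0 for 16, 17 and 15 of the 25 (all genes 48.5%, 47.2% and 46.5%). By direction they were 1 higher and 3 lower for PTX (2.59% and 2.64% of all genes), 0 and 4 for NCTD (5.5% and 5.34%) and 1 and 0 for MIX (4.75% and 2.69%). For NCTD, Gstm5 differed between routes by -1.23 ± 0.41 (SE), with an unadjusted p of 0.00663 and an adjusted p of 0.317. Gstm1 differed by -1.45 ± 0.62 (SE) and Gsta4 by -1.50 ± 0.65 (SE), with unadjusted p-values of 0.0311 and 0.0317. The value of Gsta4 was -0.77 without NCTD_IP 5 and -2.00 without NCTD_IP 6, the 2 tumors of that group. For both mu genes NCTD_IP lay wholly above its controls and NCTD_IT wholly below. For PTX, Gstm5 differed by -1.08 ± 0.42 (SE) and Gstz1 by -0.88 ± 0.39 (SE), with unadjusted p-values of 0.0179 and 0.0353. The value of Gstz1 was -0.39 without PTX_IP 4 and -1.24 without PTX_IP 3. The remaining 4 values were those of Gstp1 in both contrasts (-4.08 for PTX and -4.55 for NCTD), of Gstp2 for PTX (4.94) and of Gpx7 for MIX (6.56), which rest on copies or on few reads.

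The other genes of glutathione and peroxide handling, 64 in all, had small p-values in both directions. In NCTD_IT, 4 of the 55 tested were higher and 7 lower at an unadjusted p below 0.05 (all genes 11.6% and 10%), in MIX_IT 7 and 4 (7.88% and 5.11%), and in PTX_IT 0 and 4 (4.18% and 2.16%), with 0 called by edgeR in each. In NCTD_IT, Secisbp2, which binds the selenocysteine insertion element of selenoprotein mRNAs, stood at 27.6 ± 3.14 (SD, n = 4) CPM against 16.2 ± 2.26 (SD, n = 4) CPM and differed by 0.80 ± 0.20 (SE; unadjusted p = 0.000854, adjusted p = 0.0542). Slc7a11, the cystine importer, stood at 18.8 ± 16.2 (SD, n = 4) against 5.33 ± 1.79 (SD, n = 4) CPM and differed by 1.85 ± 0.49 (SE; unadjusted p = 0.00165, adjusted p = 0.0583). Its partner chain Slc3a2 had the opposite sign, at -0.73 ± 0.22 (SE; unadjusted p = 0.00407, adjusted p = 0.0759). Prdx4, a peroxiredoxin of the secretory pathway, differed by -0.65 ± 0.17 (SE; unadjusted p = 0.00135, adjusted p = 0.0572) in NCTD_IT and by -0.56 ± 0.17 (SE; unadjusted p = 0.00414, adjusted p = 0.194) in MIX_IT. Sod2, the mitochondrial superoxide dismutase, differed in MIX_IT by 0.54 ± 0.16 (SE; unadjusted p = 0.00320, adjusted p = 0.185), and Abcc5, an exporter of conjugates, by 0.71 ± 0.24 (SE; unadjusted p = 0.00831, adjusted p = 0.220). In PTX_IT the smallest p belonged to Slc3a2 at -0.69 ± 0.24 (SE; unadjusted p = 0.0102, adjusted p = 0.785), Chac1, which cleaves glutathione, at -2.39 ± 0.91 (SE; unadjusted p = 0.0177, adjusted p = 0.785) and Hpgds, a sigma-class transferase, at -0.62 ± 0.27 (SE; unadjusted p = 0.0330, adjusted p = 0.785).

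The 6 genes of the NRF2 list outside the named families were Nfe2l2 (NRF2), its repressor Keap1 and the targets Nqo1, Hmox1, Txnrd1 and Srxn1. Of these, 0 had an unadjusted p below 0.05 in any IT comparison. Their log2 fold changes were positive for 1 of 6 in NCTD_IT, 5 of 6 in MIX_IT and 3 of 6 in PTX_IT (below 0 for 48%, 48.9% and 48.4% of all genes in the same order). Keap1 was among the positive ones each time, at 0.43, 0.25 and 0.12 in the same order. By the IP route 56 of the 64 genes were tested, with 0 higher and 2 lower at an unadjusted p below 0.05 in PTX_IP (all genes 3% and 2.3%), 1 and 0 in NCTD_IP (1.92% and 1.67%) and 2 and 1 in MIX_IP (1.39% and 1.55%). Nqo1, a quinone reductase and NRF2 target, differed in NCTD_IP by 1.37 ± 0.59 (SE; unadjusted p = 0.0434, adjusted p = 0.999), and Srxn1, sulfiredoxin, in MIX_IP by 1.06 ± 0.37 (SE; unadjusted p = 0.0167, adjusted p = 0.999). Also in MIX_IP, Scly differed by -0.50 ± 0.20 (SE; unadjusted p = 0.0314) and G6pdx by 0.61 ± 0.25 (SE; unadjusted p = 0.0350), each with an adjusted p of 0.999. The lower genes of PTX_IP were Secisbp2l at -0.63 ± 0.22 (SE; unadjusted p = 0.0199) and Idh1 at -0.58 ± 0.25 (SE; unadjusted p = 0.0424), each with an adjusted p of 0.906. Between routes, 11 were higher and 6 lower in IT of 57 tested at an unadjusted p below 0.05 (all genes 7.33% and 6.14%), and Idh1, which makes NADPH for the reduction of glutathione, rose, with a log2 fold change of 0.77 ± 0.13 (SE; unadjusted p = 5.7e-06, adjusted p = 0.00987). The change of Idh1 by IT minus that by IP was 0.84 ± 0.30 (SE; unadjusted p = 0.0112, adjusted p = 0.892) for PTX. For MIX it was 1.03 ± 0.29 (SE; unadjusted p = 0.00218, adjusted p = 0.584).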

How the data were processed

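Tumor RNA was extracted and made into 3′ mRNA libraries with the Collibri kit. Per the labels, the authors checked reads with FastQC, trimmed them with Trimmomatic and aligned them with STAR 2.7.11b to GRCm39; the strand setting, the treatment of multi-mapping reads and any use of molecular identifiers are not given in the sources used here. The deposited table holds raw read counts per gene for 23 tumors (2861578 to 6702374 per tumor), and 0 columns of values were left out. Genes passing filterByExpr (minimum count 10, minimum total 15) were tested on these counts with edgeR 4.0.16 (limma 3.58.1, R 4.3.3), TMM scaling and 1 model per route, or all 23 tumors for route and for differences between routes. DESeq2 1.42.0, RLE size factors, no filter, protein-coding genes only, an Xist covariate, only the 2 groups compared and leaving out each tumor were alternatives. Summing near-identical copies was chosen after seeing the data. Copies were found by aligning GENCODE transcripts of the 34 genes to GRCm39 with minimap2 2.31 (at most 5% divergence, at least 200 aligned bases). CPM per kb divides by the gene length given with the counts, which need not be the length of any single transcript. Figures used matplotlib 3.10.9. Every gene of the named families is given with its detection. Fold changes are printed where the unadjusted p was below 0.05, with per-tumor values for the smallest p-values, and other classes' leading genes are added for comparison. Of other pathway lists, up to 3 genes of smallest p are named, and Slc3a2 in NCTD_IT was added after its values were seen. The genes and lists were chosen with earlier results of these data known. The scripts were tested on simulated data.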

Additional observations from a re-analysis of the deposited data

Results flagged for a closer look

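Within groups of 4 tumors, a value was looked at again where its gap to the nearest other tumor was a large part of the group's range (Dixon's criterion). Of 69 such groups of values, 3 met it, where chance alone would give 3.45. Gsta4 in MIX_IT 23 stood at 5.77 CPM against 30.6 to 32.4 CPM in the other 3 tumors. Gpx3 in the same tumor stood at 91.6 CPM against 5.16 to 14.1 CPM. Gstp1 in MIX_IT 24 stood at 1208 CPM against 48.8 to 184 CPM, and this was the third tumor, after CONTROL_IT 11 and 12, in which Gstp1 held a large share of the reads that it and Gstp-ps had together.

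In 4 cases every tumor of a drug group lay on one side of its controls by the IP route and on the other side by the IT route. They were 3 of 23 genes tested in both routes for NCTD and 1 of 23 for PTX, with 0 for MIX, against 3.54%, 1.98% and 2.88% of the 12059 genes tested in both. The difference between routes was tested with edgeR in each and did not pass after adjustment. For NCTD, Gstm1 differed by 0.44 by IP and -1.01 by IT (difference -1.45, adjusted p = 0.428), Gstm5 by 0.40 and -0.84 (-1.23, adjusted p = 0.317) and Gstz1 by 0.16 and -0.60 (-0.75, adjusted p = 0.481). For PTX, Gstm5 differed by 0.42 by IP and -0.66 by IT (-1.08, adjusted p = 0.892).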

How the results depend on the processing

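Over the alternatives that kept all tumors, 270 values of single genes kept their direction and their side of the threshold, 29 passed it where they had not, 4 no longer passed and 3 reversed. The 3 reversals came with near-identical copies summed, namely Gstp1 in PTX_IT (0.13) and NCTD_IT (0.11) and Gpx4 between routes (0.23). The 4 losses were Gsta1 in NCTD_IT with RLE size factors (adjusted p just above the threshold) and with the Xist covariate, and Gpx8 between routes with the Xist covariate and without a filter on low counts (adjusted p = 0.120). Of the counts of genes called, 71 stayed and 19 moved. Without the filter the counts called were 1 in MIX_IP, 2 in PTX_IT, 6 in NCTD_IT, 3 in MIX_IT, 1 and 6 in the F tests among the IP and the IT groups, 3 between routes, and 1, 3 and 2 for the change of PTX, NCTD and MIX between routes. In those fits every gene with a read was tested. The share of all genes called in them is not given here, so these counts are not a result about these families. DESeq2 called 1 gene in PTX_IT, 6 in NCTD_IT, 1 in MIX_IT and 3 in the F test among IT groups; those in NCTD_IT were Gsta1, Gsta2, Gsta4, Gstm1, Gstm5 and Gstp1. Over all genes that it gave an adjusted p, DESeq2 called 15 (0.0969%), 1380 (10.6%), 230 (1.92%) and 309 (3.58%) in the same order. In NCTD_IT the count was 0 with RLE size factors, 4 in 1 model of all 23 tumors, 0 with the Xist covariate and 5 with only the 2 groups compared, and between routes it was 0 with the Xist covariate. The cause of these moves was not tested. Leaving out 1 tumor at a time gave 0 to 2 genes called in NCTD_IT (2 without CONTROL_IT 10, Gsta1 and Gstp1) and 0 to 1 between routes, and 0 in each other comparison by edgeR. For these fits, too, the share of all genes called is not given here. The number of genes detected was 21 to 22 without 1 tumor, 22 at a group mean of 0.5 CPM, 22 with RLE size factors, 19 with at least 1 count in every tumor and 17 with at least 3. No paired analysis was possible because each tumor has its own replicate number, shared with no tumor of another group. Genes of few reads, such as Gstm7 and Gpx7, are limited by depth.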
